A study of Homo sapiens with 12 samples.

Results

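The 10 genes described here encode members of the SLC4 and SLC26 families of membrane transporters for bicarbonate, chloride and sulfate. They were found by gene symbol in the deposited read count table of a study of T84, a human colon cancer cell line that forms an epithelial layer in culture, and all 10 were among its 48162 Ensembl gene identifiers. From the SLC4 family these were SLC4A2, SLC4A3, SLC4A4, SLC4A7, SLC4A8 and SLC4A11, and from the SLC26 family SLC26A2, SLC26A3, SLC26A6 and SLC26A11. The medium of confluent cells was replaced by Hanks buffered saline, and 4 groups of 3 libraries were made: pH 7.4 for 3 h, pH 6.0 for 3 h, pH 7.4 for 6 h and pH 6.0 for 6 h. All groups had the same cell line and the change from medium to saline, and none of the libraries used here was taken before that change. The labels do not say whether a group's 3 libraries are separate cultures, so p-values measure only the spread between libraries, and that spread could be technical.

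Cells lose or gain base equivalents largely as bicarbonate. In the SLC4 family, the anion exchangers SLC4A2 and SLC4A3 usually carry bicarbonate out of the cell in return for chloride, while sodium-coupled carriers such as SLC4A4, SLC4A7 and SLC4A8 bring bicarbonate in. SLC26 carriers exchange a wider set of anions: SLC26A3 and SLC26A6 work at the apical face of the intestinal epithelium on chloride, bicarbonate and oxalate, and SLC26A2 takes up the sulfate that is attached to mucins and proteoglycans.

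Libraries held between 13912532 and 24331032 counts, and mitochondrially encoded genes took between 7.14% and 10.6% of them. At 6 h this share was 7.97% to 8.97% at pH 7.4 and 7.14% to 7.40% at pH 6.0, without overlap. All 12 colonic epithelial markers were present, from the homeobox gene CDX1, at 70.1 CPM or more in every library, to the keratin KRT8, at up to 4589 CPM (CPM, the usual count rate per library total, here after TMM scaling). The summed CPM of 10 fibroblast markers was 33.6 in library 2 at pH 7.4 and 6 h, where COL1A1 reached 14.0 CPM, and from 8.15 to 11.9 in the other libraries. Without that library no member's call changed. Leukocyte markers summed to 11.3 CPM or less and endothelial markers to 13.7 CPM or less in any library, and PTPRC, the pan-leukocyte marker, had at most 4 counts. At 6 h the leukocyte sum was 6.57 to 8.84 CPM at pH 7.4 and 10.3 to 11.3 CPM at pH 6.0. The colonic sum was 8782 to 9102 CPM at pH 7.4 and 11056 to 12020 CPM at pH 6.0. Of the 12 colonic markers, 6 were called higher and 2 lower at pH 6.0, against 21.9% and 25.1% of all tested genes. The part of these shifts in the pH differences at 6 h given below was not tested.

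Per gene length, 3 members made up most of the carrier RNA. On the RPKM scale, which divides a count by gene length and library total, SLC26A2 had the highest mean over the 12 libraries, 36.0, followed by SLC4A2 with 26.6 and SLC26A6 with 15.7. SLC26A2 ranged from 9.98 to 74.6 RPKM and so spanned both of the genes next to it in this order, while SLC4A2 (20.8 to 32.9) and SLC26A6 (11.7 to 20.4) did not overlap each other. SLC26A3 followed with a mean of 5.88 RPKM (3.44 to 8.87). SLC4A7, with a mean of 2.80, and SLC26A11, with 2.42, overlapped over most of their ranges, and the lowest library of SLC26A3 lay just within the range of SLC4A7. SLC4A8 averaged 1.00 RPKM and did not overlap with the genes above it. The remaining 3 members were near the limit of detection: SLC4A11 had 3 to 22 counts per library, SLC4A3 had 5 to 18 and SLC4A4 had 1 to 11.

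**Figure D1:**
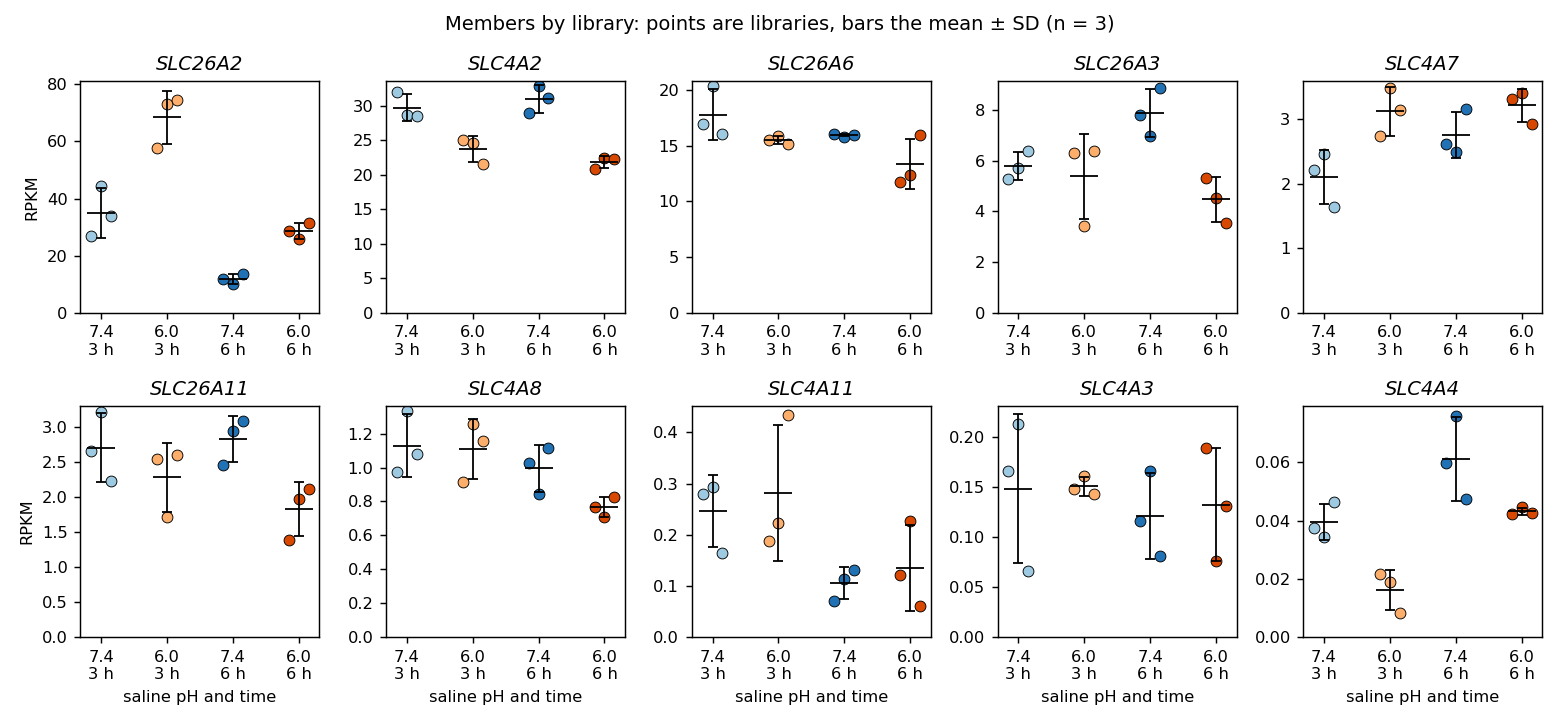
RPKM of each of the 10 genes (y axes, each from 0) in the 12 libraries by saline pH and time (x axes). Points are libraries and bars the mean ± SD of 3 libraries. SLC26A2 runs from 9.98 to 74.6 RPKM, its groups at 6 h below those of the same pH at 3 h, while SLC4A4 stays under 0.1 RPKM.

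The make-up of this RNA differed between groups mainly through SLC26A2. Of the RPKM summed over the 10 genes, SLC26A2 took 36.6% ± 5.47 at pH 7.4 and 3 h, 56.8% ± 4.25 at pH 6.0 and 3 h, 16.0% ± 1.95 at pH 7.4 and 6 h, and 38.3% ± 2.11 at pH 6.0 and 6 h (SD, n = 3 each). Its share was higher in each pH 6.0 library than in any pH 7.4 library of the same time. Summed over the other 9 genes, RPKM went the other way: 59.7 ± 3.10 at pH 7.4 against 51.7 ± 1.60 at pH 6.0 at 3 h, and 61.8 ± 2.32 against 45.8 ± 2.07 at 6 h (SD, n = 3 each). These shares and sums were not tested. In RNA from whole wells, fewer cells that express a gene and less RNA per cell cannot be told apart.

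**Figure D2:**
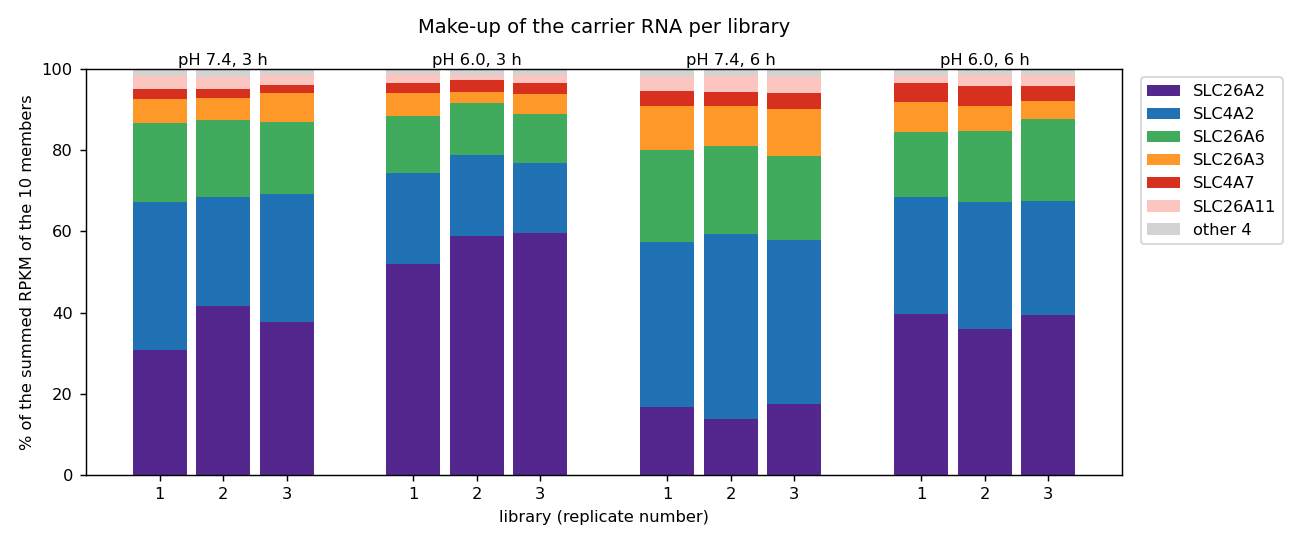
Share of each gene in the RPKM summed over the 10 genes (y axis, percent) in each of the 12 libraries (x axis, by group and library number). The SLC26A2 segment averages 56.8% at pH 6.0 and 3 h and 16.0% at pH 7.4 and 6 h.

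Of the 10 genes, 9 passed edgeR's filter on low counts and were tested among 15630 genes. SLC4A4 was not. Its counts were 7, 5 and 6 at pH 7.4 and 3, 2 and 1 at pH 6.0 at 3 h, and 8, 11 and 6 at pH 7.4 and 5, 7 and 5 at pH 6.0 at 6 h. SLC4A4 encodes the electrogenic sodium bicarbonate cotransporter, and at these counts no difference between groups could be judged. A gene was called changed at a Benjamini-Hochberg adjusted p under 0.05 over all tested genes. A value after ± on the log2 scale is a standard error (SE).

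At 3 h, 2 of the 10 genes were higher at pH 6.0 (SLC26A2 and SLC4A7) and 1 was lower (SLC4A2). Among all tested genes 18.8% were called in this comparison, 9.53% higher and 9.26% lower. The median log2 fold change was 0.005 over the 9 tested members and -0.003 over all tested genes. At 6 h, 1 was higher at pH 6.0 (SLC26A2) and 3 were lower (SLC4A2, SLC26A3 and SLC26A11), against 47.0% of all tested genes called, 21.9% higher and 25.1% lower. Here the median was -0.21 over the members and -0.001 over all tested genes. The groups did not overlap for 4 of the 9 tested members at 3 h, against 33.0% of all tested genes, and for 4 at 6 h, against 56.6%. SLC4A4, which was not tested, is not counted here. In a list of 10 with 9 tested, the 3 and 4 genes called are not far from the background. With scaling by total counts alone, the genes called at 3 h split into 1194 higher and 1752 lower, in place of 1489 and 1448. The comparison at 6 h and that of times at pH 7.4 share the pH 7.4 libraries at 6 h, and each group enters 2 of the 4 comparisons, so these are not independent.

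SLC26A2, the sulfate transporter whose loss causes diastrophic dysplasia, was the member with the largest changes. At 3 h it measured 207.8, 337.7 and 270.8 CPM at pH 7.4 and 464.3, 576.4 and 594 CPM at pH 6.0. At 6 h it measured 97.4, 82.0 and 110.2 CPM at pH 7.4 and 242.9, 215.6 and 265.4 CPM at pH 6.0. Every pH 6.0 library was above every pH 7.4 library of its time, while the pH 6.0 libraries at 6 h lay among the pH 7.4 libraries at 3 h. The log2 fold change with pH was 1.00 ± 0.16 at 3 h (adjusted p = 0.00111) and 1.32 ± 0.17 at 6 h (adjusted p = 2.64e-05). In the order of all tested genes from most lowered to most raised at 6 h, it stood at percentile 97.2.

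With time SLC26A2 fell at both pH values. The log2 fold change from 3 h to 6 h was -1.50 ± 0.17 at pH 7.4 (adjusted p = 2.58e-05), which placed it at percentile 0.3 of all tested genes, and -1.18 ± 0.16 at pH 6.0 (adjusted p = 0.000245). These 4 calls held under all 21 alternative settings and left-out libraries. The pH effect at 6 h exceeded that at 3 h by 0.32 ± 0.23 on the log2 scale, which did not pass the test (adjusted p = 0.337). This interaction is sensitive to the treatment of gene length: with a correction for length it was 0.74 (adjusted p = 0.00464), and over its 20 alternatives the adjusted p ran from 0.00282 to 0.627. SLC26A2 shares exon sequence with TIGD6 on the opposite strand, and TIGD6 lay between 1.16 and 3.94 CPM, far below SLC26A2.

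The sequence before the start of SLC26A2 is shown because this gene moved most. It covers the 250 bases upstream of the RefSeq transcript start (GRCh38.p14, chr5:149960508-149960757, plus strand), and its last bases lie within an annotated first exon of the gene in GENCODE 29. The sequence of SLC26A3 (GRCh38.p14, chr7:107803224-107803473, minus strand) is set beside it as that of a carrier that was lower at pH 6.0 at 6 h. Capitals mark matches, on either strand, to the motifs searched.
SLC26A2: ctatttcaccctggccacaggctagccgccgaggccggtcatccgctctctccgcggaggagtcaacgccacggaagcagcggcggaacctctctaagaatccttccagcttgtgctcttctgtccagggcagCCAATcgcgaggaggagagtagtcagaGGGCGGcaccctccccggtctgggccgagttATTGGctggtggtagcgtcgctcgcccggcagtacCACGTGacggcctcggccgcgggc
SLC26A3: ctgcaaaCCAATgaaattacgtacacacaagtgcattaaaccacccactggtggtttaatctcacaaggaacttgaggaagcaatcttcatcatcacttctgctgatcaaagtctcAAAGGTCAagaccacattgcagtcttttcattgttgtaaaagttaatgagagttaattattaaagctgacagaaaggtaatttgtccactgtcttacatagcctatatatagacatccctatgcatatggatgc

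Motifs were searched on both strands in the 250 bases before the start, in 27305 RefSeq promoters, 8 of them of members (none was matched for SLC4A11 and SLC26A11). The SLC26A2 sequence holds the E-box CACGTG 24 bases before the start, as do 6.49% of all promoters scanned, and with it the shorter hypoxia element core ACGTG, present in 18.7% and contained in the E-box on both strands. It also holds CCAAT at 117 and 59 bases and the GC box GGGCGG at 90 bases before the start, which 33.0% and 42.3% of promoters hold. The SLC26A3 sequence holds AAAGGTCA, the NR4A monomer site, 134 bases before the start (1.05% of promoters), and a CCAAT at 243 bases. Among the other members, SLC4A7 has 3 GC boxes and 1 CCAAT, SLC26A6 has 2 GC boxes and 1 CCAAT, and SLC4A8 has 2 CCAAT. SLC4A2, SLC4A3 and SLC4A4 have none of the 7 motifs. The remaining motifs, TGACGTCA (1.77% of promoters) and TGANTCA (6.60%), were found in none of the 8. By base composition the pair shown differ, with 66.0% G and C for SLC26A2 and 37.6% for SLC26A3, against a median of 58.0% over the promoters scanned. A match says only that the letters are present.

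Among the apical exchangers, SLC26A3 was lower at pH 6.0 at 6 h and SLC26A6 was not called at either time. SLC26A3 is the chloride/bicarbonate exchanger named for being down-regulated in adenoma, whose loss causes congenital chloride diarrhoea. It measured 14.4, 15.4 and 18.1 CPM at pH 7.4 and 18.0, 9.61 and 18.0 CPM at pH 6.0 at 3 h. At 6 h it measured 22.7, 20.3 and 25.6 CPM at pH 7.4 and 16.0, 13.5 and 10.6 CPM at pH 6.0. Between the pH values only the 6 h groups were separate, and at 3 h library 2 of pH 6.0 lay well below the other 2 of its group. The log2 fold change with pH was -0.06 ± 0.20 at 3 h (adjusted p = 0.872) and -0.77 ± 0.20 at 6 h (adjusted p = 0.00394), and the latter call held under all 21 alternatives. Without library 2 of pH 6.0 at 3 h the value at 3 h was 0.18.

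The change of SLC26A3 with time was less firm. From 3 h to 6 h its log2 fold change was 0.52 ± 0.19 at pH 7.4 (adjusted p = 0.0463) and -0.19 ± 0.20 at pH 6.0 (adjusted p = 0.543). The call at pH 7.4 was lost in 9 of 21 alternatives, and over the 21 the adjusted p ran from 0.000904 to 0.176. The difference between the pH effects at 6 h and 3 h was -0.72 ± 0.28 (adjusted p = 0.0628). It passed the threshold in 3 of 20 alternatives, among them leaving out library 2 of pH 6.0 at 3 h (-0.95, adjusted p = 0.00176), and the adjusted p ran from 0.00176 to 0.179.

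SLC26A6, the apical exchanger that also secretes oxalate, measured 92.5, 109.3 and 90.5 CPM at pH 7.4 and 87.7, 88.2 and 85.1 CPM at pH 6.0 at 3 h. At 6 h it measured 92.7, 91.5 and 91.5 CPM at pH 7.4 and 69.8, 73.2 and 95.2 CPM at pH 6.0. Library 3 of the last group lay above all 3 pH 7.4 libraries and the other 2 below them. Its log2 fold change was -0.16 ± 0.10 at 3 h (adjusted p = 0.259) and -0.21 ± 0.10 at 6 h (adjusted p = 0.0842). Without that library the value at 6 h was -0.33 and passed the test (adjusted p = 0.00788), as it did with scaling by total counts (adjusted p = 0.0435). It was -0.09 without library 1 and -0.12 without library 2 of pH 6.0 at 6 h, and -0.02 with the length correction (adjusted p = 0.893).

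SLC26A11, a sulfate and anion transporter found in lysosomes among other membranes, was lower at pH 6.0 at 6 h. It measured 7.21, 8.65 and 9.003 CPM at pH 7.4 and 4.21, 5.92 and 6.41 CPM at pH 6.0 at that time, with no overlap. At 3 h the groups overlapped, at 7.36, 8.77 and 6.40 CPM at pH 7.4 and 7.31, 4.84 and 7.39 CPM at pH 6.0. With pH it had a log2 fold change of -0.20 ± 0.18 at 3 h (adjusted p = 0.477) and -0.58 ± 0.19 at 6 h (adjusted p = 0.0137). The call at 6 h was lost without library 3 of pH 7.4 at 6 h (adjusted p = 0.0527) and without library 1 of pH 6.0 at 6 h (adjusted p = 0.127). Its exons overlap those of SGSH, a lysosomal sulfatase gene on the opposite strand at 15.5 to 19.4 CPM, and the counting's use of strand is not known, so reads of this pair may have been split.

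SLC4A2, the basolateral chloride/bicarbonate exchanger of many epithelia, was lower at pH 6.0 at both times. It measured 151.1, 133.3 and 139.4 CPM at pH 7.4 and 122.8, 118.3 and 104.9 CPM at pH 6.0 at 3 h. At 6 h it measured 144.8, 164.8 and 155.1 CPM at pH 7.4 and 107.5, 114.8 and 115.0 CPM at pH 6.0. The groups did not overlap at either time. On the log2 scale the fold change was -0.29 ± 0.08 at 3 h (adjusted p = 0.0147) and -0.46 ± 0.08 at 6 h (adjusted p = 7.15e-05). The call at 6 h held under all 21 alternatives, at -0.31 with the length correction and -0.30 with the length and GC correction. That at 3 h was lost in a fit of only the groups compared (adjusted p = 0.0547), without library 1 of pH 7.4 at 3 h (adjusted p = 0.0797) and without library 3 of pH 6.0 at 3 h (adjusted p = 0.109). Its level was not called different between times at either pH, with log2 fold changes of 0.13 ± 0.08 at pH 7.4 and -0.04 ± 0.08 at pH 6.0, and the pH effects at 6 h and 3 h differed by -0.17 ± 0.12 (adjusted p = 0.29). CDK5, which overlaps SLC4A2 on the opposite strand, lay between 3.95 and 9.62 CPM.

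SLC4A7, the electroneutral sodium bicarbonate cotransporter that loads cells with base, was higher at pH 6.0 at 3 h. It measured 16.4, 18.0 and 12.6 CPM at pH 7.4 and 21.1, 26.4 and 24.0 CPM at pH 6.0 at 3 h. At 6 h it measured 20.5, 19.7 and 24.6 CPM at pH 7.4 and 26.9, 27.4 and 23.8 CPM at pH 6.0, and these groups overlapped through 1 library each. The log2 fold change with pH was 0.60 ± 0.13 at 3 h (adjusted p = 0.00267), which held under all 21 alternatives, and 0.27 ± 0.13 at 6 h (adjusted p = 0.0841), which passed the threshold in 8 of 21. With the length correction the value at 6 h was 0.54. A difference between the pH effects was not called (-0.32 ± 0.18, adjusted p = 0.19), and it was 0.09 with the length correction.

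At pH 7.4, SLC4A7 was also higher at 6 h than at 3 h, by 0.46 ± 0.13 (adjusted p = 0.00958). That value was 0.17 with the length correction (adjusted p = 0.302), and the call was lost without library 3 of either time (adjusted p = 0.0806 without that of 3 h and 0.0736 without that of 6 h). Gene length bears on this value: SLC4A7, with 7757 bases, is the longest of the 10 gene models after SLC26A2, with 8080 bases.

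**Figure D3:**
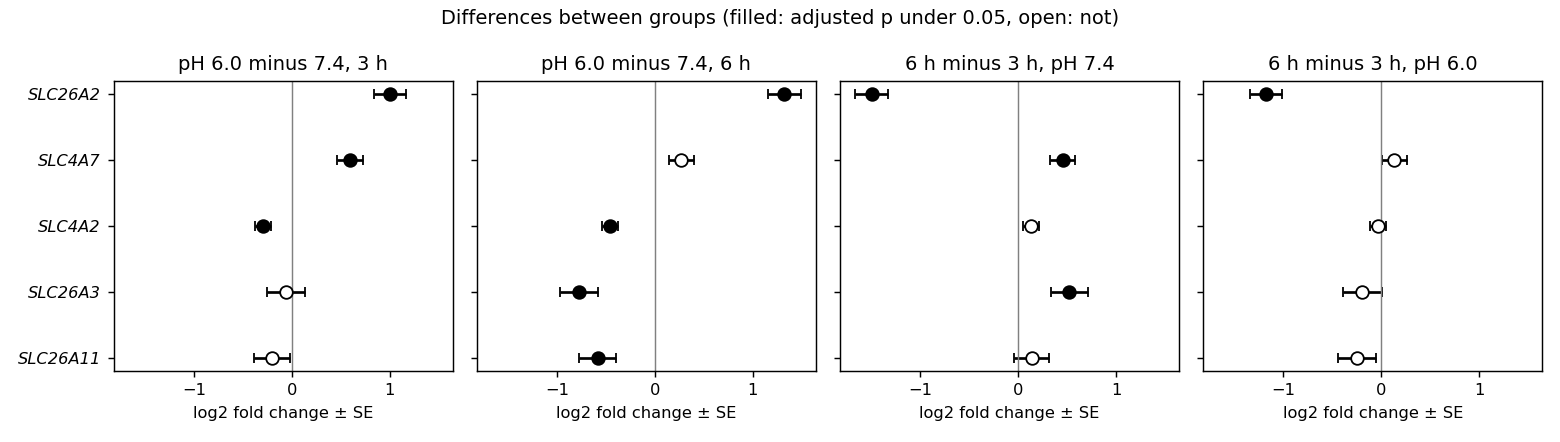
Log2 fold change ± SE (x axes) of the 5 members called in any comparison (y axis), in the 4 comparisons of pH and of time. Filled points passed an adjusted p of 0.05. SLC26A2 is the only one of the 5 that is filled in all 4 panels, to the right of 0 for pH and to the left for time.

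SLC4A8, the sodium-driven chloride/bicarbonate exchanger, was called in no comparison. At 6 h it measured 4.59, 3.76 and 4.93 CPM at pH 7.4 and 3.53, 3.24 and 3.82 CPM at pH 6.0, and at 3 h all libraries of both groups lay between 3.98 and 5.53 CPM. The log2 fold change with pH at 6 h was -0.33 ± 0.20 (adjusted p = 0.175), and that with time at pH 6.0 was -0.44 ± 0.20 (adjusted p = 0.12). SLC4A8 overlaps GALNT6 on the opposite strand, which was at 96.5 to 195 CPM, so a small share of misassigned reads would alter its value. SLC4A11, a membrane protein that conducts protons and water and carries little or no bicarbonate, had at most 22 counts in a library. It measured 0.87, 0.90 and 0.53 CPM at pH 7.4 and 3 h against 0.23, 0.38 and 0.43 CPM at 6 h, a log2 fold change of -1.15 ± 0.51 that did not pass (adjusted p = 0.0888). SLC4A3, the anion exchanger best known from heart and brain, stayed between 0.29 and 0.90 CPM in all libraries, and its groups overlapped in every comparison.

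Between times at pH 7.4, 2 members were higher at 6 h (SLC4A7 and SLC26A3) and 1 was lower (SLC26A2), against 31.6% of all tested genes called, 17.2% higher and 14.4% lower. The median over the tested members was -0.09 on the log2 scale and that over all tested genes -0.02. Between times at pH 6.0, 1 member was lower (SLC26A2) and none was higher, against 19.5% called, 8.64% higher and 10.9% lower, with medians of -0.19 and -0.02. The 2 times did not overlap for 4 tested members at pH 7.4 (43.4% of all tested genes) and for 2 at pH 6.0 (35.6%). For the interaction of pH and time, edgeR called 0 members, against 29.4% of all tested genes. That background was 13.1% in the positive and 16.3% in the negative direction. At an unadjusted p under 0.05 it had 1, SLC26A3, against 39.8% of all tested genes, and DESeq2 called 1 by adjusted p, against 34.1% of the genes to which it gave one. With total counts alone, all called genes split into 2093 higher and 3179 lower for time at pH 7.4 (2695 and 2247 with TMM scaling) and into 773 and 2499 for time at pH 6.0 (1351 and 1699).

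**Figure D4:**
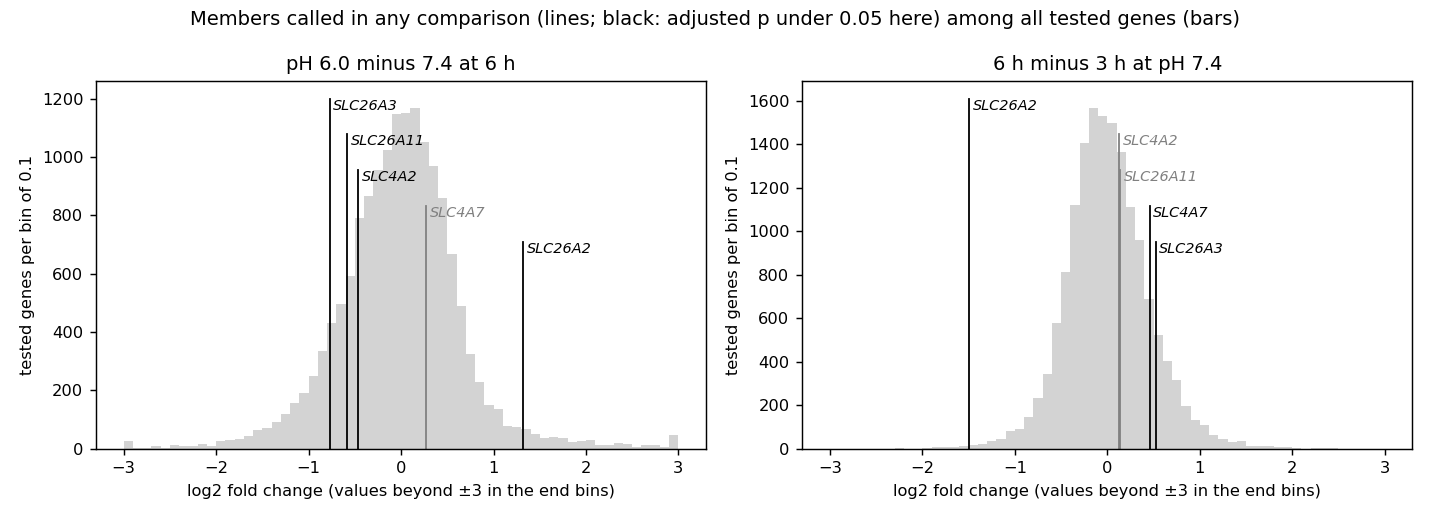
Number of tested genes per bin of 0.1 (y axes) by log2 fold change (x axes) for pH at 6 h and for time at pH 7.4, with the 5 members called in any comparison as lines of arbitrary height, black where called in that panel. SLC26A2 lies at 1.32 in the upper tail for pH and at -1.50 in the lower tail for time, and the others lie nearer the centre.

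Of the other 11 genes of both families, 4 were tested. SLC26A1, a sulfate and oxalate transporter, was lower at pH 6.0 at 6 h, at 15.8 ± 3.25 CPM against 8.27 ± 2.19 CPM (SD, n = 3 each), a log2 fold change of -0.92 ± 0.17 (adjusted p = 0.000132). At 3 h it was -0.45 ± 0.17 (adjusted p = 0.0637). Its exons overlap those of IDUA on the opposite strand, at 17.2 to 23.9 CPM. SLC26A5, which encodes prestin, the motor protein of cochlear hair cells, was called higher at pH 6.0 at 3 h (1.73 ± 0.50, adjusted p = 0.0197) and at 6 h (1.68 ± 0.53, adjusted p = 0.013) on 2 to 21 counts per library. It passed the filter on low counts through the pH 6.0 libraries, at 0.89 to 1.26 CPM, against 0.12 to 0.67 CPM at pH 7.4. The filter thus favoured this direction, so these p-values cannot be read as those of an unselected test. SLC26A5 lost its call at 3 h without library 3 of pH 7.4 or library 2 of pH 6.0, and at 6 h without library 1 or library 2 of pH 7.4 at that time, and its value at 6 h was 2.78 without library 3 of that group. SLC26A8 averaged 0.29 RPKM, SLC4A9 0.11 and SLC4A5 0.08, and none of them was called. The thyroid and ear exchanger SLC26A4, SLC4A10, the red cell exchanger SLC4A1 and the gastric carrier SLC26A9 had at most 6 counts in any library. SLC26A7 and SLC26A10 were at 0 in all 12.

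Among 21 genes that regulate or work beside these carriers (kinases, scaffold proteins, carbonic anhydrases and others), 18 were tested. At pH 6.0, 7 were higher and 0 lower at 3 h, and 6 were higher and 1 lower at 6 h, against 18.8% and 47.0% of all tested genes called, with list medians of 0.19 and 0.17 on the log2 scale against -0.003 and -0.001 over all tested genes. The exception was WNK4, a kinase that controls ion transporters. WNK4 measured 41.7, 45.4 and 41.6 CPM at pH 7.4 and 36.4, 45.3 and 35.7 CPM at pH 6.0 at 3 h, and 69.0, 73.2 and 70.4 CPM against 28.7, 30.0 and 35.5 CPM at 6 h. Its log2 fold change with pH was -0.13 ± 0.10 at 3 h and -1.18 ± 0.10 at 6 h (adjusted p = 3.39e-09), and these differed by -1.04 ± 0.14 (adjusted p = 2.1e-05). By contrast, its relative WNK2 was higher at pH 6.0 at 3 h (0.40) and at 6 h (0.61). So were OXSR1, a kinase that WNK kinases activate (0.33 and 0.34), and the membrane carbonic anhydrase CA12 (0.37 and 0.31). With the length correction WNK2 was 0.27 at 3 h and CA12 0.53 at 6 h, both still called. Between times, 4 of the list were higher and 0 lower at 6 h at pH 7.4, and 2 were higher and 3 lower at pH 6.0, against 31.6% and 19.5% of all tested genes called. In the interaction 0 were higher and 3 lower, against 29.4%.

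SLC26A2 supplies sulfate to the cell, so 20 genes of sulfate activation and use were also counted, and 17 were tested. These genes take up or activate sulfate, carry it into the Golgi, attach it, or clear a by-product of its transfer. At pH 6.0, 4 were higher and 0 lower at 3 h, and 6 were higher and 1 lower at 6 h, against 18.8% and 47.0% of all tested genes called, with list medians of -0.04 and 0.10. HS6ST1, a heparan sulfate sulfotransferase, was higher at pH 6.0 at both times (0.41 and 0.75), as was HS2ST1, another of that class (0.41 and 0.56). Both calls at 3 h depend on single libraries: that of HS6ST1 was lost without library 1 of pH 7.4 or library 3 of pH 6.0, and that of HS2ST1 without library 2 of pH 6.0. The HS2ST1 value at 3 h was 0.26 with the length and GC correction. PAPSS1, which makes the activated sulfate donor, had a log2 fold change of 0.07 at 3 h and 0.53 at 6 h, and the difference passed the test (0.46, adjusted p = 0.0131). SLC35B2, which carries that donor into the Golgi, was higher at pH 6.0 at 6 h (0.44) and also differed between the times (0.46, adjusted p = 0.00594). The paralogues PAPSS2 and SLC35B3 measured lower at pH 6.0 at 6 h. Only 1 gene of the list was called lower in that comparison, so they were not both called. PAPSS2 measured 150.1, 149.5 and 139.2 CPM at pH 7.4 and 127.7, 115.1 and 136.2 CPM at pH 6.0. SLC35B3 measured 18.26, 19.45 and 17.89 CPM at pH 7.4 and 16.44, 13.9 and 16.79 CPM at pH 6.0. For both, these groups did not overlap, against 56.6% of all tested genes. With time at pH 7.4, 1 of the list was higher and 4 were lower, and at pH 6.0 it was 1 in each direction, against 31.6% and 19.5% of all tested genes called. In the interaction 3 were higher and 1 lower, against 29.4%.

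**Figure D5:**
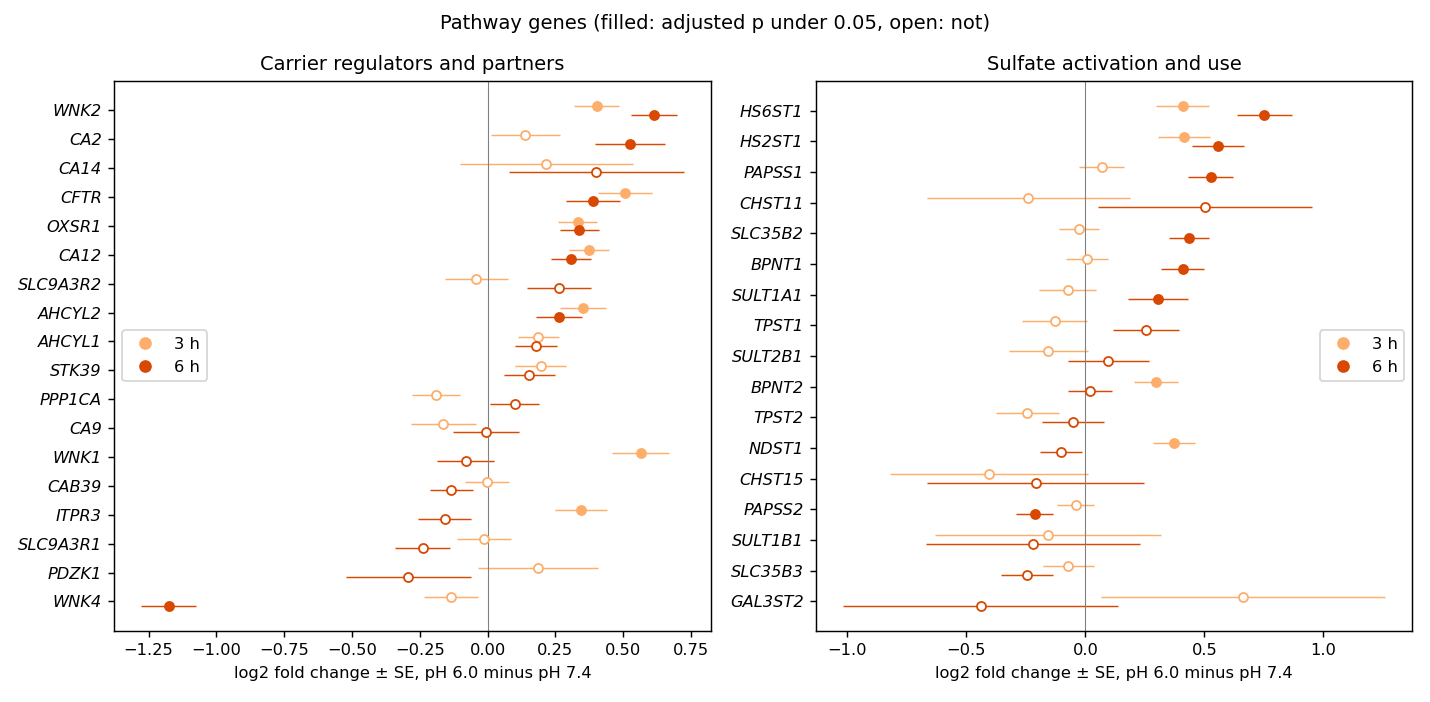
Log2 fold change ± SE with pH (x axes) of the tested genes of both pathway lists (y axes, ordered by the value at 6 h), at 3 h in light and at 6 h in dark orange. Filled points passed an adjusted p of 0.05. WNK4 at 6 h, at -1.18, is the only filled point of the regulators to the left of 0.

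The genes whose log2 CPM followed SLC26A2 most closely over the 12 libraries were GGA2 (Pearson r = 0.978), SLC11A2 (0.977), TFCP2L1 (0.973), USP13 (0.972) and GAREM2 (0.970). SLC11A2, the proton-coupled iron transporter, averaged 248.7 CPM at pH 7.4 and 327.1 CPM at pH 6.0 at 3 h, and 120.3 CPM and 212.4 CPM at 6 h. It thus had the order of groups seen for SLC26A2. GGA2 had the highest r but moved less, with 87.34 CPM at pH 7.4 and 95.38 CPM at pH 6.0 at 3 h, and 77.05 CPM and 86.8 CPM at 6 h. For SLC4A2 the closest were TMC6 (0.972), ENSG00000241181, for which no symbol was matched (0.968), IP6K1 (0.968), TMEM184A (0.965) and STK11IP (0.964). TMEM184A averaged 62.5 CPM at pH 7.4 and 39.3 CPM at pH 6.0 at 3 h, and 75.7 CPM and 39.7 CPM at 6 h. For TMC6 these means were 82.92 CPM and 72.35 CPM at 3 h, and 88.52 CPM and 72.59 CPM at 6 h. A high r thus does not mean a change of like size. These correlations describe 12 libraries that fall into 4 groups, so they mostly follow the group means.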

How the data were processed

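RNA of 12 libraries of T84 cells was measured. The authors deposited, per library and Ensembl gene, a read count and an RPKM value. Counts are raw and RPKM values relate them to gene length and library total, as deposited by the authors. Per the submitters' processing notes, STAR, CASAVA and the hg19 build were used. Versions, annotation, counting program and strand use were not given in the sources used here.

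All tests used the counts. One fit in edgeR 4.0.16 (R 4.3.3) with TMM factors, the default filter and robust quasi-likelihood F tests took the 4 groups of 3 libraries together and left 8 residual degrees of freedom. It covered 15630 genes, with Benjamini-Hochberg adjustment over all of them. CPM values use TMM-scaled totals. RPKM values served for levels between genes and for gene lengths, which were recovered from them and reproduced 100.0% of the values within a relative tolerance of 1e-06. A chi-square test found more than sampling noise between any 2 libraries of a group (5.40 to 19.5 per degree of freedom), so none was a second copy of another's counts; this does not show that they are separate cultures. Symbols were found for 45342 identifiers, and 91 of 92 list genes were matched. Exon overlaps come from GENCODE 29 on GRCh38 and promoter sequences from RefSeq.

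The members and lists were chosen with earlier results of these data known. Named are all members, the other genes of both families, and up to 4 genes per pathway list with the smallest p for pH at 6 h. The 5 genes most correlated with the member of smallest p in each direction are named as well. PAPSS2 and SLC35B3 were added as paralogues of PAPSS1 and SLC35B2. Alternatives were DESeq2 1.42.0, median-of-ratios factors, total counts, no filter, a filter of 5 CPM in 3 libraries, only the groups compared (not for the interaction), a replicate block and each library left out. A correction for gene length was planned as well, by splines with 5 degrees of freedom fitted by linear regression in R 4.3.3. Its extension to GC content was chosen after seeing the data. On simulated data with known changes the fit was tested as well.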

Additional observations from a re-analysis of the deposited data

Results flagged for a closer look

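By edgeR's interaction test (Benjamini-Hochberg adjusted), 29.4% of all tested genes were called. Of the genes named with a log2 fold change, 3 were among them, with a pH effect at 6 h that differed from that at 3 h. These pathway genes were named for a small p for pH at 6 h, which favours such a difference. WNK4 had a difference of -1.04 on the log2 scale (adjusted p = 2.1e-05, 0.000271 or less over 20 alternatives). PAPSS1 had a difference of 0.46 (adjusted p = 0.0131, 0.0372 or less over 20 alternatives). SLC35B2 had a difference of 0.46 (adjusted p = 0.00594, 0.0422 or less over 20 alternatives), which was 0.28 with the length and GC correction. SLC35B2 was at 87.7 ± 6.51 CPM at pH 7.4 and 86.0 ± 8.41 CPM at pH 6.0 at 3 h, against 68.4 ± 1.13 CPM and 92.4 ± 4.38 CPM at 6 h (SD, n = 3 each). None of the 3 is a carrier of either family, and the cause of these differences was not tested. With 3 libraries per group, no group was large enough for a search for single outlying libraries.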

How the results depend on the processing

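Over the log2 fold changes that were recomputed (those given in the text, not those of genes shown only in a plot or given only by level or correlation), 600 called values kept their call and 25 lost it; of those not called, 426 stayed so, 20 passed the threshold and 9 changed sign. The count of members for the interaction, 0 in the main analysis, was 1 with DESeq2, 2 with no filter, 1 with the length correction and 1 with the length and GC correction, and 0 to 1 with a library left out. For time at pH 7.4 the members called were 3, but 1 with the length and GC correction and 1 to 3 with a library left out. Leaving out a library gave 1648 to 3617 changed genes for pH at 3 h in place of 2937 (1661 without library 1 of pH 7.4, and 1649 and 1648 without libraries 2 and 3 of pH 6.0 at 3 h), and 1915 to 3408 for time at pH 6.0 in place of 3050 (1915 without library 3 of pH 6.0 at 3 h). The cause was not tested.

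Signs changed for SLC26A3 with pH at 3 h (-0.20 to 0.18 with a library left out; 0.04 and 0.18 without library 3 of pH 7.4 and library 2 of pH 6.0), and for SLC4A2 with time at pH 6.0 (0.047 with the length and 0.041 with the length and GC correction, -0.10 to 0.042 with a library left out; 0.042 and 0.019 without library 1 of pH 6.0 at 3 h and at 6 h). In the interaction, SLC4A2 was 0.027 with the length correction, and SLC4A7 was 0.087 with the length and 0.12 with the length and GC correction. Total counts alone moved the median of all genes for time at pH 6.0 to -0.10. The length correction changed the split of called genes from 1351 higher and 1699 lower to 2174 and 1453 for time at pH 6.0, and from 2048 and 2541 to 2013 and 1533 for the interaction.

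With a replicate block, 3, 4, 3, 1 and 0 members were called for pH at 3 h, pH at 6 h, time at pH 7.4, time at pH 6.0 and the interaction. In that order 3231, 7457, 5115, 3289 and 4774 genes were called, in place of 2937, 7342, 4942, 3050 and 4589 without the block. Residuals of same-numbered libraries correlated between -0.13 and 0.23 over 18 pairs, with a median of 0.031 and 2 above 0.1. Those of differently numbered libraries correlated between -0.19 and 0.16 over 36 pairs, with a median of -0.022 and 4 above 0.1. With 3 libraries per group, these values cannot decide whether library numbers pair the samples. Members with under 25 counts per library (SLC4A3, SLC4A4, SLC4A11) allow no statement on small changes.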
